A study of Mus musculus with 36 samples.

Results

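The hallux, or big toe, was compared with toes III and V of the embryonic mouse foot by the chromatin regions called open in each. Overlapping peaks (1 bp or more) from the 6 hindlimb lists were joined to form the regions compared, and any overlap with a list's peaks counted as a call. A region was called only in the hallux when both hallux lists (foot phalanges and metatarsal) held it and none of the 4 lists of toes III and V did, and it was lost in the hallux in the reverse case. Over all lines of the lists, 201 of 57658 hindlimb regions (0.349%) were called only in the hallux and 47 (0.0815%) were lost there. With each list limited to its 36194 most significant peaks, which is the length of the shortest of the 12 lists in the series, 155 of 47819 (0.324%) were called only in the hallux and 92 (0.192%) were lost.

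Every list came from autopod chondrocytes (cartilage cells of hand or foot) of FVB/NJ mouse embryos at stage E15.5, with no altered genotype or treatment named. ATAC-seq, which reads accessible chromatin from fragments released by a transposase, was run on 36 libraries, 3 for each of 12 groups set by limb, element and digit, and each group gave 1 peak list. A library pooled left and right elements of 3 to 5 embryos from 1 litter, which is 6 to 10 limbs in all. The 18 hindlimb libraries gave the foot phalanges and metatarsal lists of digits I, III and V. The hallux phalanges were the proximal and distal bones, whereas toes III and V also gave the intermediate one, so digit and bone makeup cannot be told apart in the phalanx lists. Only pooled lists were analysed, so no list has an error of its own, the spread is between lists, and p-values measure no spread between animals. In such bulk lists, fewer cells that use a region and less open chromatin per cell cannot be told apart.

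The first digit differs from the others in forming fewer phalanges, and in arising at the anterior edge of the limb bud, farthest from the source of Sonic hedgehog. Genes of the posterior HoxD cluster other than Hoxd13 are largely silent in its primordium in mouse, and loss of Hoxa13 in mouse or its mutation in people affects the first digits most. By the stage sampled, the toes are cartilage models with joints, growth plates and a perichondrium, so the regions compared here lie in differentiating cartilage and not in the bud.

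Because the rule names regions and not genes, the 4 promoter windows that lay wholly inside a region holding its class at both list lengths are shown first. All come from RefSeq on GRCm38.p6, span 300 bases around an annotated transcript start, most of them upstream, and are written 5′ to 3′ on the gene's strand with letters of a searched motif in capitals. The first sits in the region near Foxa2 that the hallux lacked, and the others sit in regions that only the hallux held.
Gm36597, chr2:148170357-148170656, plus strand: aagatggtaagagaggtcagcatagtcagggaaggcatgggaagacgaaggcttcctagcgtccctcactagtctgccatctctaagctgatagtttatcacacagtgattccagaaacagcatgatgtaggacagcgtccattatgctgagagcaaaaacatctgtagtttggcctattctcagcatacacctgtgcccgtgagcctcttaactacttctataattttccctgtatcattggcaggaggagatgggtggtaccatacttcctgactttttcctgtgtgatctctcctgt
Gm4872, chr6:53220914-53221213, plus strand: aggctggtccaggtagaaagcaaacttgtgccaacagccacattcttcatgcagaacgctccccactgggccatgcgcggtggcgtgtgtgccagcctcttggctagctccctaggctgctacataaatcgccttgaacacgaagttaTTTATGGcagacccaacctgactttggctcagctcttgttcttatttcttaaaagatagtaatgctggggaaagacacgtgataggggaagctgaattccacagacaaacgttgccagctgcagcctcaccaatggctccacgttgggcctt
Proca1, chr11:78194452-78194751, plus strand: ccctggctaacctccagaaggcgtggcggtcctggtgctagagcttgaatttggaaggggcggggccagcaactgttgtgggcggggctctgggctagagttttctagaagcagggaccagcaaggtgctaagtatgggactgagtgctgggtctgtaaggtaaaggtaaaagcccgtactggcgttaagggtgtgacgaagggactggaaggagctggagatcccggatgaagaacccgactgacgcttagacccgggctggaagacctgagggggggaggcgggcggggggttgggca
Gm34253, chr11:102375219-102375518, plus strand: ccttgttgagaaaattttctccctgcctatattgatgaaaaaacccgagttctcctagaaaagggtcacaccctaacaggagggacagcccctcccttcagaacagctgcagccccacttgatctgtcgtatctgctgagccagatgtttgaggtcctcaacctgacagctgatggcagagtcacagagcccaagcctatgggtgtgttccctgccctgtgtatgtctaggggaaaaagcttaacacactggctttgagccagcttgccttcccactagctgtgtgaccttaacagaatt

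Gm36597, Gm4872 and Gm34253 are long non-coding RNA genes in RefSeq, and Proca1 is protein-coding. The Proca1 window is at a start inside the gene (chr11:78192677-78205763), and the other windows are at the gene's own start. The windows were 46.3%, 51.7%, 60.3% and 50.3% G or C, in that order, with 4, 9, 13 and 2 CpG pairs, against a median of 52.7% and 7 pairs over 32851 promoter windows of 27025 genes. Motifs were searched as plain letters on both strands, and the shares given are of all promoter windows. For posterior HOX factors the letters were TTTACGA (or TTTATGG in its other form), found in 3.33%. For SOX factors they were ACAAT (or ACAAAG), found in 42.9%. For homeodomain factors they were TAATTA, found in 5.29%. For FOX factors they were TGTTTAC (or TGTTTGC), found in 8.48%. For RUNX factors they were TGTGGT, found in 16.8%, and GLI letters, which can overlap them, were GACCACC, found in 2.80%. For AP-1 they were TGANTCA, found in 7.81%, and the TATAAA box was found in 13.6%. The only match in the 4 windows was 1 posterior HOX match in Gm4872, in the region near Creb5.

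The 6 hindlimb lists differed in length. The foot phalanges lists held 39121 peaks in the hallux, 47375 in toe III and 39937 in toe V, and the metatarsal lists held 46582, 44292 and 36700. The hallux list was thus the shortest of its element in the phalanges and the longest in the metatarsals. Mean length was 42852 ± 5276 peaks (SD, n = 2) in the hallux and 42076 ± 4707 (n = 4) in the other toes (exact permutation p = 0.778, two-sided, digits exchanged within an element). This design has 9 labellings and a smallest p of 0.111, so no test over lists could pass 0.05. The weakest peak of a list had a −log10 p-value of 28.6 to 41.5, so lists differed in how weak a peak they could hold. The labels state a common minimum target of reads for every library, but the reads obtained are unknown. As for the labelled cell type, 6 to 8 of 8 chondrocyte markers had a peak within 1 kb of a gene end in every hindlimb list (Sox9, Col2a1 and Acan in all 6), against 3 or 4 of 6 muscle, 1 or 2 of 5 endothelial, 1 of 4 blood, 1 of 4 epidermal, 2 of 3 tendon and 1 to 3 of 3 nerve markers. A called region near a gene is not its transcription.

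Few regions told the hallux apart. Both classes made up under 1% of hindlimb regions, while 27303 regions (47.4%) over all lines and 24950 (52.2%) at equal list length were called in all 6 lists. The rule fixes these classes, so their counts are a description with no test. Applied to the other digits, the same rule gave 812 regions called only in toe III and 46 only in toe V over all lines, and 66 and 362 lost. At equal list length toe III had 251 called only there and 194 lost, and toe V had 152 and 85. The hallux count at equal length was therefore close to that of toe V and below that of toe III in both classes.

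**Figure D1:**
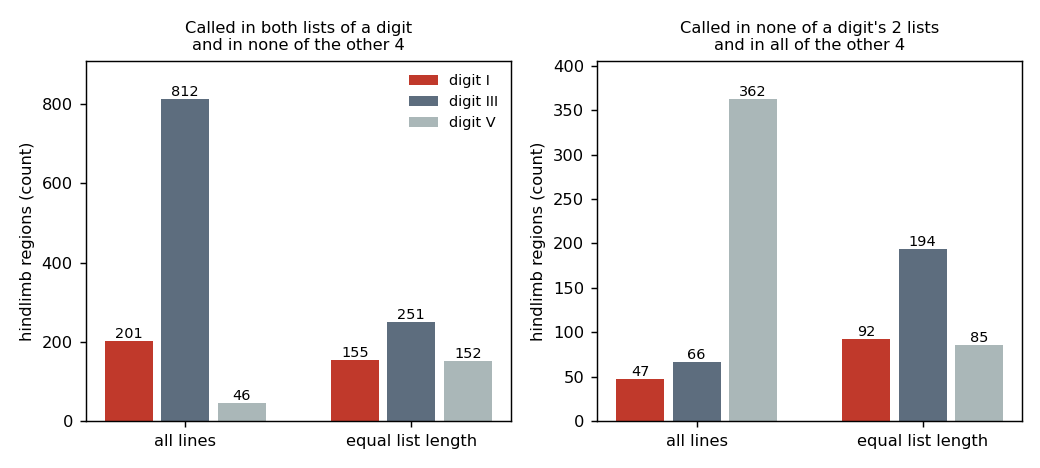
Bars give the number of hindlimb regions called in both lists of a digit and no other (left) or in none of them and all 4 others (right), over all lines and with every list limited to its 36194 most significant peaks. The hallux gave 201 and 47 regions over all lines and 155 and 92 at equal length, beside the counts of toes III and V.

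Most hallux differences seen in one element were absent from the other. In the phalanges 1541 regions were called in the hallux and not in toes III and V of that element, of which 13.0% met the rule in both elements, and in the metatarsals 5930 were, of which 3.39% did. At equal list length these counts were 2183 (7.10% shared) and 2539 (6.10%). Regions lost in the hallux numbered 3327 in the phalanges (1.41% shared) and 762 in the metatarsals (6.17%) over all lines, and 1891 (4.87%) and 1578 (5.83%) at equal length. These counts are of 57658 hindlimb regions over all lines and 47819 at equal length. Each shared percentage was above the share of all regions that met the same rule in the other element, by a few points at most. The excess was least for lost regions over all lines and was not tested. Just outside the rule, 584 regions were in both hallux lists and 1 of the 4 others, and 459 were in no hallux list and 3 of 4 others. The median within-list percentile of −log10 p was 12.3 for regions called only in the hallux and 16.1 just outside, and 18.1 and 16 for the lost class. All hindlimb regions had a median of 32.1, so both classes lay toward the weak end of the lists. At equal length the 2 classes had medians of 25 and 25.8, beside 42.0 for all regions. These are still ranks in the full lists, and the cut removes the weakest peaks. The higher values therefore do not show stronger classes at that length.

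On average, hallux pairs of lists were not less alike than other pairs. The Jaccard index (regions shared over regions in either list) of hallux pairs within an element was 0.7458 ± 0.0370 (SD, n = 4 pairs) against 0.7376 ± 0.0138 (n = 2) for toe III with toe V, and 0.7847 ± 0.0220 against 0.7804 ± 0.0185 at equal length. These pairs share lists and were not tested. In each element a hallux pair was less alike than toe III with toe V and the other hallux pair was more alike, at both lengths. Over all lines the less alike pairs were with toe III in the phalanges (0.7067 against 0.7279) and with toe V in the metatarsals (0.7260 against 0.7474). With peaks covering at least 50% of a region, the mean difference over all lines turned from 0.00824 to -0.0179. The most alike pair of phalanx lists was the hallux with toe V, at 0.7903 and, at equal length, 0.8017.

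The classes lay away from gene ends. Of the 201 regions called only in the hallux, 8.96% held a protein-coding gene's end or had an edge no more than 1 kb from one. Of the rest, 44.8% of the 201 had their centre inside a protein-coding gene and 46.3% were between such genes. Of the 47 lost regions, 4.26% were at a gene end, against 25.8% of all hindlimb regions. Regions called in any 2 of the 6 lists were at a gene end in 5.43% of cases and those in any 4 lists in 7.15%, both also far below the share of all regions. At equal length the shares were 7.10% and 9.78%, beside 6.60% in any 2 lists and 7.89% in any 4. Median width was 1641 bp for regions called only in the hallux and 1990 bp for lost ones, against 1605 bp in any 2 and 2112 bp in any 4 lists. All hindlimb regions had a median of 2351 bp over all lines, and a wider region reaches a gene end more easily.

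The rule did not use the calls of the 6 forelimb lists, so the same regions were read there. The equal list length was, however, that of a thumb list, metacarpal digit I with 36194 peaks, which was thus not cut. Before the cut, hand phalanges I, III and V held 38947, 44289 and 36789 peaks, and metacarpals III and V held 53276 and 38250. At equal list length, 39.4% of the 155 hallux regions were called in hand phalanges digit I (the thumb), 16.8% in digit III and 28.4% in digit V. In the metacarpals 32.9%, 16.1% and 18.7% were. Both thumb lists were above all 4 other forelimb lists. The thumb mean was 36.1% ± 4.56 (SD, n = 2), which was 16.1 percentage points above the mean of the 4 others, whose SD was 5.70 (two-sided exact permutation p = 0.111, the smallest these lists can give). Regions lost in the hallux showed the reverse order. They were called in 45.7%, 70.7% and 59.8% of cases in hand phalanges I, III and V and in 46.7%, 70.7% and 59.8% in metacarpals I, III and V, so both thumb lists were below all 4 others. Those means were 46.2% ± 0.769 (n = 2) and 65.2% ± 6.28 (n = 4), a difference of -19.0 points (exact permutation p = 0.111). All hindlimb regions were called at 69.3% in thumb lists and 68.7% in the others.

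Over all lines the order was not the same. Regions called only in the hallux were at 26.4% and 14.9% in the thumb phalanx and metacarpal lists, and at 22.9%, 15.4%, 29.9% and 10.9% in hand phalanges III and V and metacarpals III and V. The mean shares were 20.6% ± 8.09 (n = 2) in thumb lists and 19.8% ± 8.33 (n = 4) in the others, a difference of 0.871 points with overlapping lists (exact permutation p = 1.00). Lost regions differed by -22.9 points, 33.0% ± 4.51 against 55.9% ± 23.5 (exact permutation p = 0.333), and here the forelimb lists overlapped too. The metacarpal digit III list, with 53276 peaks the longest of all, held 83.0% of the lost regions. At equal length, requiring peaks to cover 50% of a region turned the difference for lost regions to 2.12 points (exact permutation p = 1.00). Without the metatarsal hallux list the differences were 3.83 and -6.63 points.

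**Figure D2:**
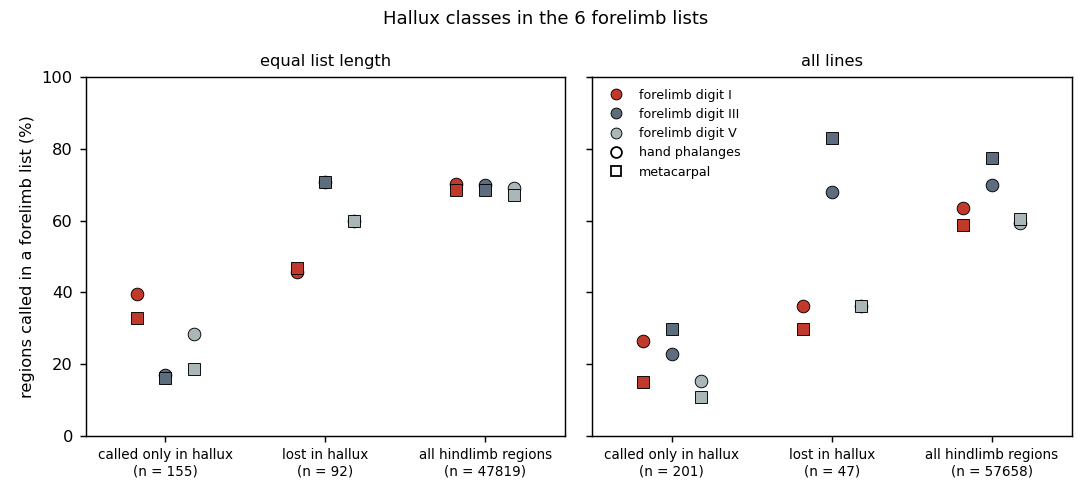
Each point is the share (%) of hallux-only, hallux-lost or all hindlimb regions that was called in 1 forelimb list, at equal list length (left) and over all lines (right); colour gives the digit and shape the element. At equal length both thumb lists lay above the others for hallux-only regions (39.4% and 32.9%) and below them for lost regions (45.7% and 46.7%), while over all lines they overlapped.

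Bases in place of whole regions gave the same forelimb order in 1 of the 2 classes, and at equal list length alone. Stretches of at least 500 bp that both hallux lists covered and no other toe list did numbered 351 over all lines and 293 at equal length, and the reverse gave 170 and 218. At equal length the mean share of hallux-only stretches covered was 32.4% ± 6.76 in thumb lists (n = 2) and 17.0% ± 6.15 in other forelimb lists (n = 4) with no overlap (exact permutation p = 0.111), and that of lost ones was 48.4% ± 5.51 and 54.7% ± 6.51 with overlap (exact permutation p = 0.222). Over all lines the lists overlapped in both classes, with hallux-only means of 23.4% ± 10.1 and 18.5% ± 6.37 (difference 4.84 points, exact permutation p = 0.444) and lost means of 47.1% ± 9.98 and 54.3% ± 13.7 (exact permutation p = 0.778). Bases of any length covered only in the hallux were 0.440% of covered bases over all lines.

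Only 24 hallux regions held the class at both list lengths (11.9% of 201 and 15% of 155), and 8 lost regions did (17.0% of 47 and 8.70% of 92). Hoxa13 encodes a homeodomain factor needed to form the distal limb, and 1 of the 24 regions, chr6:52268382-52272122 in mm10, lay near it. The region was between protein-coding genes, with its centre 9.37 kb from the nearest end of Hoxa13 (chr6:52258853-52260880). This region stood at percentile 8.12 of the foot phalanges hallux list and 27.7 of the metatarsal hallux list, and no list of toes III or V held it. The peaks of both hallux lists shared 1455 bp of it, 9.31 to 10.8 kb upstream of the start site. Among forelimb lists, the hand phalanges digit I peak reached only the edge of the region, and the metacarpal digit III peak lay in the shared stretch over all lines and not at equal length. Of 9 processing changes that could end a region's class, this region kept it under 4. It left the class, at both lengths, when other toes had to lack peaks within 1 kb of it and when peaks of all 12 lists were merged, and over all lines when only the more significant 50% of each list was used.

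**Figure D3:**
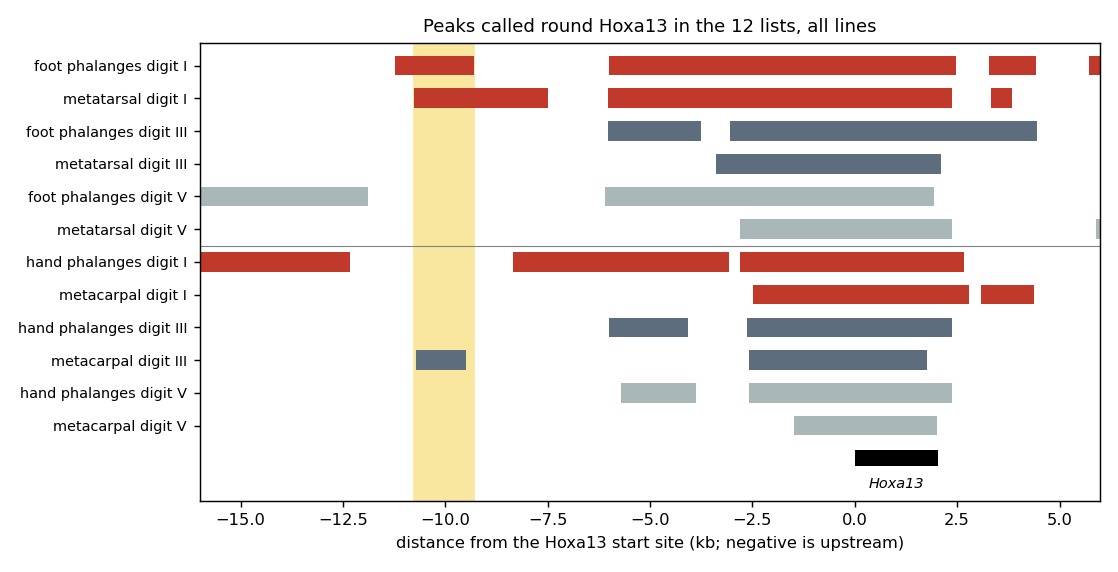
Bars are peaks called in each of the 12 lists over all lines, placed by distance in kb from the Hoxa13 start site, with colour for the digit and the black bar for the gene. The shaded stretch of 1455 bp, 9.31 to 10.8 kb upstream, is covered in both hallux lists, in metacarpal digit III and in no list of toes III and V.

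Near Creb5, a transcription factor gene active in joint-forming and articular cartilage cells, the region chr6:53218125-53221401 lay 67.5 kb from the gene end and held the Gm4872 promoter shown above. Its percentiles were 32.9 and 39.1 in the phalanx and metatarsal hallux lists, and none of the other 10 lists of the series held it at either length. Over all lines a second region, chr6:53694493-53695694, lay inside Creb5 at 5.27 kb from its end, at percentiles 16.5 and 8.58, also in no forelimb list.

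The lost region near Foxa2 was absent from every digit I list of both limbs. Foxa2 encodes a forkhead factor that, with Foxa3, promotes chondrocyte hypertrophy in mouse. The region, chr2:148169994-148172533, lay between protein-coding genes, 124 kb from Foxa2 (chr2:148042877-148046969). It held the promoter and the start of the long non-coding RNA gene Gm36597. It stood at percentiles 30.1 and 12.2 in foot phalanges III and V and 35.3 and 17.3 in metatarsals III and V. It was called in all 4 forelimb lists of digits III and V and in neither thumb list, at both list lengths, so all 8 lists of digits III and V held it and none of the 4 digit I lists did. It kept its class under 6 of the 9 changes that could end it. It left the class when peaks had to cover 50% of a region, at both lengths, and over all lines when the more significant 50% of each list was used. It was the only lost region with this forelimb pattern over all lines, and 1 of 9 at equal length. On the same chromosome a hallux-only region, chr2:147710296-147711332, lay 332 kb from Foxa2 over all lines at percentiles 13.0 and 2.63.

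The strongest hallux-only peaks were narrow. A 326 bp region inside Pcnx2 (chr8:125779061-125779386), a pecanex family membrane protein gene, stood at percentiles 92.8 and 72.9 in the phalanx and metatarsal hallux lists, with fold enrichments of 56.2 and 21.0 as the authors' peak caller gave them. A 291 bp region inside Celf2 (chr2:7076100-7076390), an RNA-binding splicing regulator gene, stood at 54.1 and 57.1. A 383 bp region near Gxylt1 (chr15:93234362-93234744), whose product adds xylose to Notch receptors, stood at 44.9 and 59.4. Over all lines these 3 were the only class regions with a mean percentile above 50. The first 2 were in no forelimb list and kept their class under all 9 of these changes, and the third was in 1 thumb list and 1 other. Slc25a33, a mitochondrial pyrimidine carrier gene, had a region 42.9 kb away at 23.5 and 65.2, in no forelimb list.

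The forelimb calls of other regions among the 24 did not follow digit I. The regions at the ends of Slc6a21, a transporter family gene, and Cga, the shared subunit of pituitary glycoprotein hormones, were called in all 6 forelimb lists over all lines and in the hallux, while the other toes lacked them. Their percentiles were 20.2 and 42.0 for Slc6a21 and 8.30 and 37.5 for Cga, in the phalanx and metatarsal hallux lists. The Lurap1l region was in all 4 lists of fingers III and V and in neither thumb list over all lines. Regions near Krt72, a keratin gene, Tmem176b and Slc4a1, the red cell anion exchanger, stood at 26.6 and 23.2, 9.76 and 39.6, and 7.64 and 46.6. The Proca1 region, with the promoter above, stood at 9.15 and 32.5. Both hallux values were under 50 for 20 of the 24 regions.

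Of the 8 lost regions, Eif3k (a translation initiation subunit) had one at its gene end, with percentiles of 37.8, 23.3, 35.6 and 4.45 in foot phalanges III and V and metatarsals III and V. Efnb2, which encodes the Eph receptor ligand ephrin-B2, had one inside the gene, at 34.4, 30.5, 42.7 and 10.3 in the same order. Both were called in both thumb lists. The region near Agr2, a secretory pathway disulfide isomerase gene, had 35.8, 23.9, 32.6 and 7 and was in no thumb list. Wdr63, a dynein arm gene, had 38.4, 19.3, 19.3 and 9.31. Galnt1, an O-glycosylation enzyme gene, had 45.3, 27.5, 18.5 and 23.0, and Kctd16, a GABA receptor auxiliary subunit gene, had 54.5, 20.6, 24.3 and 9.53. Metatarsal V, the shortest of the 4 lists, gave the lowest value in 5 of these 6 regions. These percentiles are ranks in the full lists, and all 4 lists had to hold each region after the cut to equal length. The cut removed the fewest peaks from metatarsal V, so the lowest ranks could remain only there. This order is therefore partly set by how the regions were chosen and does not show weaker peaks in metatarsal V.

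**Figure D4:**
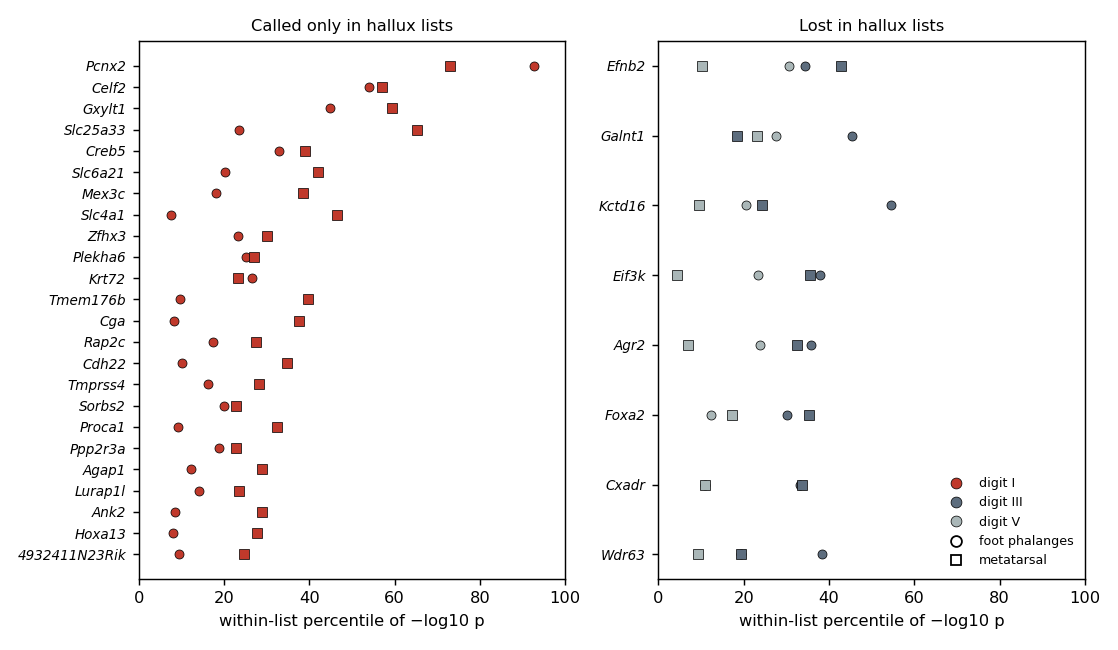
Points are the within-list percentiles of −log10 p of the 24 hallux-only (left) and 8 hallux-lost (right) regions that hold at both list lengths, named by the nearest protein-coding gene; colour gives the digit and shape the element. Pcnx2, Celf2 and Gxylt1 are the regions whose mean lies above 50.

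At equal list length a pair of lost regions lay beside a microRNA cluster, chosen for description after their values were seen. The first, chr16:77622104-77623882, lay 22.4 kb from the let-7c hairpin gene Mirlet7c-1, and the second, chr16:77717177-77718560, lay 117 kb from it, with 93.3 kb between them. The protein-coding genes nearest to them, Usp25 and Cxadr, were 506 and 583 kb away. The percentiles of the second in foot phalanges III and V and metatarsals III and V were 33.1, 11.0, 33.7 and 11.0. It held its class at both lengths, and at equal length it was in all 4 lists of fingers III and V and neither thumb list. The first had 35.7, 9.68, 39.4 and 32.0 and was in 1 thumb list and 1 other. A hallux-only region over all lines, chr8:107503007-107505033 inside Wwp2, lay 46.2 kb from Mir140, whose microRNA is abundant in cartilage, at percentiles 24.3 and 9.42 and in no forelimb list. The mature microRNAs, from RefSeq on GRCm38.p6 with the seed (bases 2 to 8) in capitals, have 3 different seeds.
let-7c-5p, chr16, plus strand: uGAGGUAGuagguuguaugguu
miR-99a-5p, chr16, plus strand: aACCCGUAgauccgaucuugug
miR-140-3p, chr8, plus strand: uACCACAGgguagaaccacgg

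A few hallux-only regions were called in both thumb lists and in no other forelimb list, 4 over all lines and 6 at equal length, with none in common. Over all lines one lay inside Runx1, a Runt family gene of skeletal and blood progenitors (chr16:92630107-92634516, percentiles 14.5 and 13.4). Others lay near Fam136a at 15.3 and 3.41, inside Btbd9 at 8.75 and 5.91, and near Smad2, a TGF-beta signal transducer gene, at 21.7 and 8.86. At equal length the nearest or host genes were Tmem182, Gpr37l1, Pakap, Msrb3, Hs3st3a1 and Tcf4, the last a transcription factor gene.

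Of the 214 genes in the 16 lists, 202 were nearest to some region over all lines, and 7 of these (3.47%) to a hallux-only one, beside 195 of all 16010 genes (1.22%). Listed genes had 6.81 regions each and all genes 3.59, and per region the shares were 0.581% (8 of 1376) and 0.348%. For lost regions the genes were 2 of 202 (0.990%) beside 0.287%, and per region the shares were 0.145% and 0.0800%. At equal length they were 6 of 201 (2.99%) beside 0.988% for hallux-only regions and 5 (2.49%) beside 0.590% for lost ones. Listed genes then had 5.67 regions each and all genes 3.06. Per region the shares were 0.526% beside 0.325% for hallux-only regions and 0.439% beside 0.193% for lost ones. Besides Hoxa13, Creb5 and Foxa2, the 7 genes over all lines were Spi1, the blood transcription factor gene (0.837 kb from the gene end, percentiles 0.0102 and 3.68), Hand2, a posterior limb bud factor gene (20.7 kb, 16.4 and 6.41), Mycn, mutated in a syndrome with digit defects in people (259 kb, 14.8 and 7.17), and Matn1, a cartilage matrix gene (312 kb, 8.35 and 5.67). The lost class had Foxa2 and Cdh5, the endothelial cadherin gene (9.98 kb). At equal length, and named after their values were seen, hallux-only regions lay near Tbx5, whose mutation affects the thumb in people (37.3 kb, percentiles 30.7 and 29.5), Pthlh, which encodes the peptide that holds back hypertrophy (11.8 kb, 22.4 and 47.9), Fgfr2 (161 kb, 20.2 and 32.7) and Pax9, an anterior limb gene (44.1 kb, 24.0 and 30.3). The Fgfr2 region was also in both thumb lists and 1 other. Lost regions then lay inside Runx2, the osteoblast and hypertrophy factor gene (chr17:44500263-44501519, percentiles 31.9, 25.8, 38.4 and 31.9), and Igf1r, the growth factor receptor gene (51.4, 37.3, 40.5 and 14.3). The others lay near Foxa2, near the blood gene Ptprc (135 kb; 42.9, 27.9, 47.1 and 28.1) and near Cdh5 (519 kb; 28.1, 28.0, 19.0 and 26.4).

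Called regions were also counted per nearest gene. Both hallux lists had more regions than all 4 others for 142 of 16010 genes (0.887%) and fewer for 25 (0.156%), and at equal length for 92 of 15584 (0.590%) and 77 (0.494%). Msx2, which encodes an anterior limb homeodomain factor, had 11 and 11 regions in the hallux phalanx and metatarsal lists and 10, 9, 7 and 5 in the others over all lines, but overlapped at equal length. Pax9 had 7 and 7 against 4, 6, 5 and 3 at equal length. Acvr1, a BMP receptor gene mutated in people with malformed great toes, had 2 and 3 against 5, 4, 5 and 5 at equal length, but overlapped over all lines. Spi1 had 4 and 4 against 3 in each other list over all lines and 3 in every list at equal length. The median difference over all genes was 0 at both lengths, and no list had more than 1 gene in either direction.

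Covered length shows differences in peak extent that region counts miss. It was the length covered by peaks over a gene and 10 kb on each side. Equal list length does not make total covered length equal. At that length the hallux phalanx and metatarsal lists covered 78.8 and 102 Mb. Foot phalanges III and V covered 97.6 and 97.9 Mb, and metatarsals III and V covered 90.6 and 83.5 Mb. Both hallux lists exceeded all 4 others for 553 of 17303 genes (3.20%) and fell short for 524 (3.03%), and at equal length for 557 of 17051 (3.27%) and 667 (3.91%). Of 13 posterior HoxA and HoxD genes, 1 exceeded (Hoxa13) and 4 fell short (Hoxd10, Hoxd11, Hoxd12 and Lnpk) at both lengths. Hoxa13 had 16 kb covered in each of the hallux lists at equal length, and 13.5, 13.8, 8.96 and 9.27 kb in foot phalanges III and V and metatarsals III and V. Over all lines the metatarsal hallux list had 16.5 kb and foot phalanges III had 15.7 kb. The thumb lists had 16.7 and 12.1 kb at equal length, above 10.1, 12, 8.76 and 7.52 kb in the other forelimb lists, though metacarpal digit I led by a small margin.

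The HoxD genes, which pattern digits along the cluster, had the reverse order. The HoxD values below are at equal list length and are the same over all lines. Hoxd10 had 22.6 and 22.8 kb in the hallux phalanx and metatarsal lists and 25.6, 23.4, 26.7 and 23.9 kb in the others. Hoxd11 had 21.5 and 20.7 kb against 23.0, 21.9, 25 and 23.0 kb. Hoxd12 had 18.1 and 17.9 kb against 21.1, 19.1, 19.9 and 19.6 kb. Hoxd13 overlapped, at 19.2 and 19.3 kb against 22.3, 20.7, 19.1 and 20.4 kb. The windows of these neighbours overlap, so they are not separate observations. From Evx2 to Hoxd8 (chr2:74652989-74707933, 54.9 kb), the hallux lists covered 41.2 and 42.0 kb and the others 47.4, 42.8, 45.2 and 43.7 kb, a gap of under 1 kb between the nearest lists. From Hoxd10 to Hoxd12 alone (20.1 kb, without flanks) the lists overlapped at both lengths, with 14.2 and 15.9 kb in the hallux against 16.7, 15.1, 18.6 and 17.1 kb. The posterior HoxA span from Hoxa9 to Evx1 (95.3 kb) overlapped too, at 51.5 and 52.3 kb against 49.8, 56.1, 41.5 and 41.3 kb at equal length. So did Hoxa13 to Evx1 (59.5 kb), at 19.6 and 21.1 kb against 15.9, 26.0, 14.2 and 13.7 kb at equal length. Over all lines foot phalanges III covered 20.7 kb of it. No base from Evx2 to Hoxd8 was covered in all 4 other toe lists and in neither hallux list. The thumb lists overlapped the other forelimb lists over that span, at 43.4 and 38.5 kb against 41.9, 39.6, 47.2 and 39.1 kb.

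**Figure D5:**
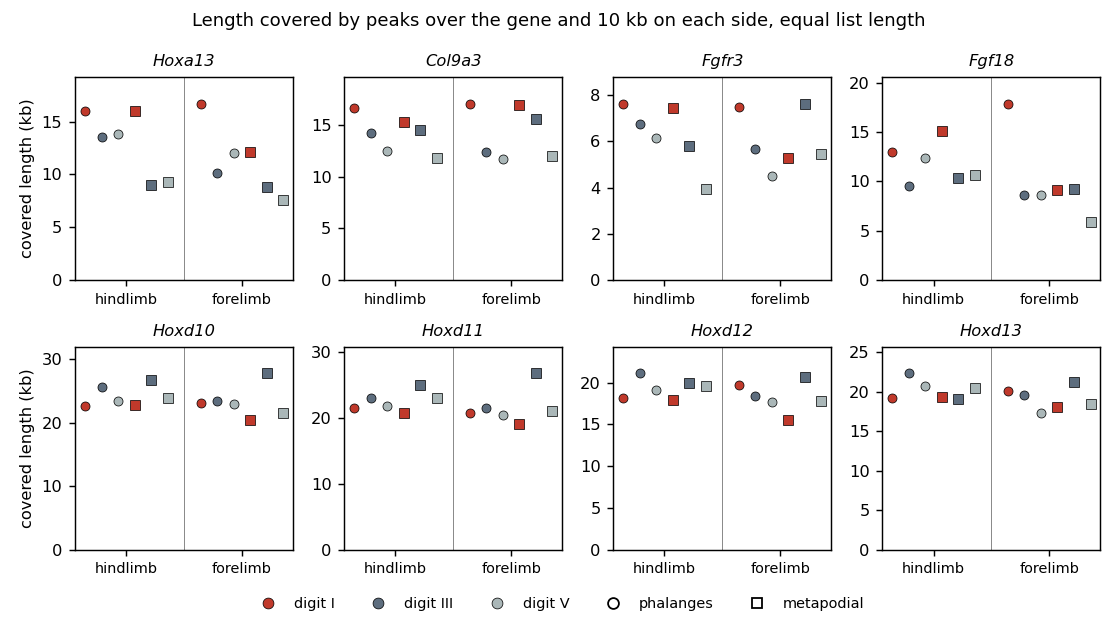
Points are kb covered by peaks over a gene and 10 kb on each side in each of 12 lists at equal length, with colour for the digit, shape for the element and a line between hindlimb and forelimb. Hoxa13, Col9a3, Fgfr3 and Fgf18 lie higher in both hallux lists than in the 4 other toe lists, Hoxd10 to Hoxd12 lie lower, and Hoxd13 overlaps.

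Growth plate genes gave scattered cases. Col9a3, a cartilage collagen gene, had 16.7 and 15.3 kb in the hallux lists against 14.2, 12.5, 14.5 and 11.8 kb at equal length, and the thumb lists (17.1 and 17.0 kb) were also above the other forelimb lists. A 915 bp stretch inside Col9a3 (chr2:180609429-180610343) was covered in both hallux and both thumb lists, in no other toe list and, at equal length, in no other forelimb list. Fgfr3, the receptor gene that restrains bone growth, had 7.60 and 7.44 kb against 6.74, 6.13, 5.79 and 3.94 kb, and its thumb lists overlapped the others. Fgf18, which encodes a growth plate ligand of that receptor, had 13.0 and 15.1 kb against 9.56, 12.4, 10.3 and 10.6 kb. Stretches of 717 bp inside Fgf18 and 663 bp at 37.0 kb from it were covered in the hallux and in no other toe list at both lengths. Nppc, which encodes the growth-promoting peptide CNP, fell short at 3.58 and 3.14 kb against 3.68, 3.63, 3.70 and 3.98 kb, while in the forelimb the thumb lists were above the others. Fgf8, Irx5, Pax7 and Cd68 also exceeded and Sall1 and Cdh5 fell short at both lengths, with Pax7 (a muscle progenitor gene) at 7.78 and 8.02 kb against 4.34, 7.56, 1.05 and 0 kb. Cd68 is a macrophage gene, Cdh5 an endothelial gene and Pax7 a muscle gene, and the part of such cells in the hallux values was not tested.

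By list, the genes that exceeded or fell short at equal length were 2 and 1 of 25 first digit genes in people, 1 and 0 of 16 anterior limb genes, 1 and 4 of 20 posterior limb genes, 2 and 0 of 19 resting and proliferating chondrocyte genes, and 1 and 2 of 31 growth plate signalling genes. None did in either direction among 9 hindlimb identity, 14 prehypertrophic and hypertrophic, 16 joint interzone and 15 perichondrium and osteoblast genes. Of the other cell types, 1 of 11 muscle genes and 1 of 9 blood genes exceeded, 1 of 10 endothelial genes fell short, and tendon, epidermal and nerve genes gave none. Over all 17051 genes, 3.27% exceeded and 3.91% fell short. In lists this short, 1 gene more or less changes a share by several points. Median log2 ratios of hallux to other toes (1 kb added to each) were -0.13 for the posterior HoxA and HoxD genes and 0.03 for the anterior limb genes, beside -0.02 for all genes. Other lists lay farther from all genes, at -0.24 for nerve and Schwann cell genes, 0.16 for hindlimb identity genes and 0.13 for epidermal genes. The posterior limb list shares Hoxd10, Hoxd11 and Hoxd12 with the Hox list.

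Among landmark genes of digit patterning, most overlapped. At equal length, Alx4, an anterior limb homeobox gene, had 8.88 and 8.77 kb in the hallux lists against 5.69, 9.37, 4.75 and 7.54 kb. Gli3, the Hedgehog pathway factor that limits digit number, had 26.2 and 37.3 kb against 49.5, 35.7, 28.5 and 28.0 kb. Hand2 had 15.0 and 19.6 kb against 17.8, 16.1, 16.1 and 16.7 kb, with the hallux lists on both sides of the rest. Tbx3, a repressor gene of the limb margins, had 8.18 and 12.4 kb against 9.56, 14.3, 3.92 and 8.35 kb. Tbx2, Grem1, Pitx1, Tbx4, Sox9, Gdf5 and Pax9 overlapped as well. Sall1, mutated in a syndrome with thumb defects, fell short at 9.54 and 9.63 kb against 9.77, 9.83, 11.3 and 10.3 kb, a margin of under 1 kb.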

How the data were processed

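The deposited files used here are 12 ATAC-seq peak lists in mm10 coordinates, 1 for each group of 3 libraries. Per the submitters' processing notes, Bowtie2 2.3.4.1, Picard 2.9.0 and MACS3 were used, with no settings given in the sources used here. Per the peak and file names, peaks were called on pooled replicates and kept at a reproducibility (IDR) threshold of 0.05. The −log10 p-values and the fold enrichment of each peak, a ratio over local background, are the authors' deposited values and rank or describe peaks within a list only. The columns of scores and q-values (24 in all) were not used. The reads obtained per library are unknown, so no interval was computed.

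Peaks of the 6 hindlimb lists were merged at 1 bp overlap, over all lines and over the first 36194 lines of each list (Python 3.11.15, numpy 2.4.6, pandas 2.3.3, figures with matplotlib 3.10.9). Lists fall in −log10 p, and a peak's within-list percentile is its rank in the full list at both lengths, with 100 the most significant. A region was assigned to the nearest of 21883 protein-coding genes of RefSeq GRCm38.p6, up to 1000 kb away. Lists were compared by exact permutation of digit labels within an element (9 labellings). The members and gene lists were chosen with earlier results of these data known. Genes were named by rule: per class, up to 8 unlisted genes with the most regions holding at both list lengths (ties by distance) and the 6 such regions with the highest mean percentile; listed genes with a class region over all lines; the 16 landmark genes; and regions called in both thumb lists and no other forelimb list, or the reverse. Genes named from equal length alone, stretches or microRNAs were chosen after their values were seen. The class rule and the exact permutation were tested on simulated data.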

Additional observations from a re-analysis of the deposited data

Results flagged for a closer look

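Within the 4 lists of toes III and V at equal list length, the covered length of Gdf5, a joint-forming growth factor gene, was 3.00 kb in metatarsal III, far from the nearest of the others at 7.09 kb. The gap was 0.867 of the whole range, beyond Dixon's 95% critical value. Of 21 such groups examined this was the 1 that passed, and chance alone gives about 1 in 20. The hallux lists had 7.70 and 6.49 kb and overlapped the others.

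The length of the hallux list against its neighbours ran in opposite directions in the 2 elements. In the foot phalanges the hallux had fewer peaks than the mean of toes III and V (difference of -4535 peaks), and in the metatarsals it had more (difference of 6086). The hallux list was below both others in one element and above both in the other, and this difference between elements was not tested, as each group has 1 list.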

How the results depend on the processing

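No paired analysis was possible because each group's 3 libraries were pooled into 1 list that carries no replicate number. Covered length, stretches and the alternatives tried on the equal-length forelimb shares were added after seeing the data. The changes that could end a region's class were 50% cover, 500-bp windows, a 1 kb margin and merging over 12 lists at each length, and the more significant 50% over all lines. The count of regions called only in the hallux (201) was 785 with the rule relaxed by 1 list and 55 over the more significant 50% of each list. The lost count (47) was 155 with 50% cover, 91 with 500-bp windows round summits, 506 relaxed, 6 over the more significant 50% and 92 over the first lines. At equal length the 155 became 237 with windows and 612 relaxed, and the 92 became 189 with 50% cover and 573 relaxed. The thumb difference for hallux-only regions over all lines (0.871 points) turned to -1.79 with windows, -0.562 with a 1 kb margin, -2.96 relaxed and -0.909 over the more significant 50%, and the equal-length difference for lost regions (-19.0) turned to 2.12 with 50% cover. Genes with more called regions (142) became 42 over the more significant 50% and 92 over the first lines, and those with fewer (25) became 60 with 50% cover, 3 and 77. Genes with more covered length (553) became 217 with windows, and those with less (524) became 47. The cause was not tested.

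Leaving out 1 list at a time changes the rule itself, since fewer lists must hold or lack a region. The ranges were 236 (without metatarsal V) to 2650 (without foot phalanges I) for regions called only in the hallux and 69 (without foot phalanges III) to 1347 (without metatarsal I) for lost ones. At equal length they were 216 to 1715 and 153 to 992. The thumb differences ran from -5.64 to 1.27 and from -24.4 to -13.5 points over all lines, and from 3.83 to 19.4 and from -20.8 to -6.63 at equal length. Genes with more called regions ran from 158 to 1362 and with fewer from 33 to 962, and genes with more covered length from 621 to 5685 and with less from 645 to 6514. The Jaccard difference (0.00824) ran from -0.0166 to 0.0246, and the list length difference (776 peaks) from -2955 without metatarsal I to 4506 without foot phalanges I. The unknown number of reads and 1 list per group limit every comparison.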

Other observations

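MicroRNA genes near other class regions were looked up after the values were seen. The Hoxa13 region lay 38.2 kb from Mir196b, and a region lost in the hallux at equal length (chr1:137927437-137928889) lay 37.6 and 37.8 kb from the genes of miR-181a and miR-181b. That region was in 1 thumb list and in all 4 other forelimb lists. The mature forms are given from RefSeq on GRCm38.p6 with the seed in capitals, and the miR-181 pair share theirs.
miR-196b-5p: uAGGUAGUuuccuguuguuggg
miR-181a-5p: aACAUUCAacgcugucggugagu
miR-181b-5p: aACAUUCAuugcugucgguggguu

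Of the 155 hallux-only regions at equal length, 50 were in no forelimb list and 6 were in both thumb lists and no other. Of the 92 lost regions, 18 were in all 6 forelimb lists and 9 were in all 4 lists of fingers III and V and in neither thumb list. Those 9 lay near Foxa2, Frmd4a, U2surp, H60b, Cand1, Atxn7l1, Prkch, Gpc5 and Cxadr. A 1855 bp stretch 3.90 kb from Pax3, a muscle progenitor gene, was covered in both hallux lists and in no other toe list over all lines. Both thumb lists and no other forelimb list covered at least 50% of it. It was not among the stretches at equal length. Inside Msrb3, a hallux-only region (chr10:120861884-120865362) and a lost region (chr10:120857452-120860171) lay next to each other at equal length.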
